A study of Arabidopsis thaliana with 16 samples.

Results

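The chloroplast-encoded genes of Arabidopsis thaliana were followed through 4 sorted cell populations of the root tip. They were taken as every locus of the expression table whose gene ID begins with ATCG, the prefix of the chloroplast genome, which gave 130 of 33201 loci. Because 3 of these loci join 2 IDs each, the 130 loci stand for 133 IDs. The w5C6 population was GFP-positive cells of the wox5 mutant carrying pCYCD6:GUS-GFP, a promoter reporter for the CEI, or cortex endodermis initial, from which the cortex and endodermis files arise. The C6 population was GFP-positive cells with the same reporter and without the wox5 mutation. W5S and W5NS were the GFP-positive and GFP-negative cells of the pWOX5:erGFP line, whose reporter marks the quiescent center (QC). All roots were grown for 5 days, about 1 mm of the tip was protoplasted (freed of cell walls), and 4 libraries were made from each population. In wox5 roots the CEI reporter extends into further cortex and endodermis cells, as the study describes, so the makeup of the w5C6 and C6 sorts may differ, and W5NS is a mixture of all root tip cells without WOX5 reporter signal.

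Chloroplasts and the colourless plastids of root cells carry the same small genome, a relic of a cyanobacterial ancestor. It encodes core subunits of the photosystems, the cytochrome b6f complex, the ATP synthase and the NDH complex, the large subunit of Rubisco, part of the plastid ribosome, and the plastid's own rRNAs and tRNAs. The plastid genome is transcribed by a bacterial type polymerase (PEP), whose core is plastid-encoded and which needs nuclear-encoded sigma factors, and by phage-type polymerases (NEP) encoded in the nucleus. Most partner subunits of the same complexes are nuclear genes, and in roots much of the photosynthetic machinery is normally kept low.

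The values were FPKM (fragments scaled to transcript length and library size), 1 pooled value per locus and population, so no spread between the 4 libraries could be given and no test was made. Differences below are therefore descriptions of pooled values, and sequencing depth is unknown. As a check of the labels, WOX5 read 0.0865 FPKM in w5C6, 18.4 in C6, 206 in W5S and 42.1 in W5NS, and CYCD6;1 read 7.01, 9.75, 0.828 and 7.02 FPKM in the same order. CYCD6;1, the gene of the CEI reporter, was thus no higher in w5C6 than in W5NS, which was not sorted against that reporter, so its level does not set the library labelled w5C6 apart as CEI cells. It sets C6 apart only a little, with a log2 ratio of FPKM + 1 of 0.42 over W5NS. WOX5 read higher in W5NS than in C6, although W5NS was sorted as GFP-negative. The comparisons with C6 or w5C6 against W5S or W5NS also set 1 reporter line against another.

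The table pairs no ATCG ID with a gene name, and the reference annotation (TAIR10.1) lists chloroplast genes under other identifiers. Of the IDs that notes on nuclear genes in that annotation identify, 6 are described by name. ATCG00420 is the parent of the nuclear pseudogene AT4G13285, which aligned to ndhJ at 88.2% identity over 169 bases. The other 5 are given as the closest proteins of nuclear genes, and the proteins of these nuclear genes aligned best to ndhK (ATCG00430), cemA (ATCG00530), rpl20 (ATCG00660), clpP (ATCG00670) and rpl2 (ATCG01310) on the chloroplast genome, at 32.8% to 48.4% identity. The note for ATCG00430 calls it photosystem II reaction center protein G, an older name of this NDH subunit. All other members are given by ID and no role is assigned to them.

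Of the 130 loci, 88 had a mean of at least 1 FPKM over the 4 populations, and 82 of these were above 0 in every population. The remaining 42 lay below this minimum, and 24 of them were listed at 0 in all 4 populations. Listed at 0 throughout were thus 18.5% of the chloroplast-encoded loci, against 8.00% of all loci. Chloroplast-encoded loci summed to 20587 FPKM in w5C6, 10345 in C6, 8716 in W5S and 9822 in W5NS, which was 2.27%, 1.08%, 1.10% and 1.35% of all FPKM. The w5C6 sum was 1.99-fold the C6 sum, while the W5S sum was 0.887 times the W5NS sum. The median of the 88 loci was 114 FPKM in w5C6, 58.5 in C6, 41.6 in W5S and 43.6 in W5NS, and that of all 20344 loci above the minimum lay between 10.9 and 12.4. Chloroplast-encoded loci above the minimum thus read well above the typical locus in FPKM in each of the 4 populations. How fully these libraries captured plastid RNA is not given in the sources used here and was not tested.

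**Figure D1:**
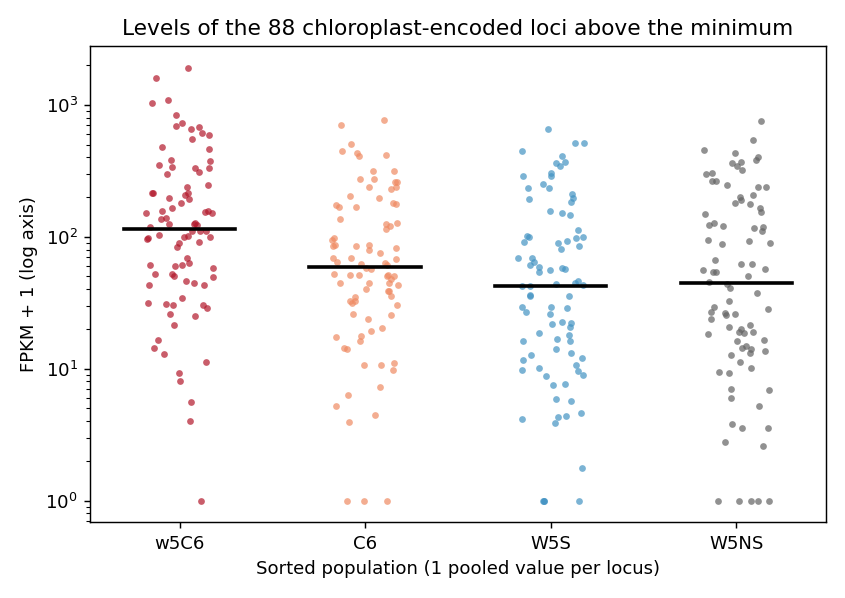
FPKM + 1 (log axis) of the 88 chloroplast-encoded loci above the minimum in the sorted populations w5C6, C6, W5S and W5NS, 1 point per locus and a bar at the median. The medians are 114, 58.5, 41.6 and 43.6 FPKM, and points at the bottom are loci listed at 0.

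The loci ranked in a similar way in each population. Over the 88 loci the rank correlation of levels was 0.94 between w5C6 and C6, 0.92 between C6 and W5NS and 0.93 between W5S and W5NS. It was 0.91 between C6 and W5S, 0.9 between w5C6 and W5S and 0.87 between w5C6 and W5NS. These points share transcript lengths and sequence composition, so the values describe the table only. The highest mean was that of ATCG00630, at 1607 FPKM in w5C6, 702 in C6, 653 in W5S and 747 in W5NS. ATCG01020 followed at 1916 FPKM in w5C6, 768 in C6, 516 in W5S and 457 in W5NS, and ATCG00550 at 1025, 419, 509 and 539 FPKM in the same order. In all 3 the w5C6 value was the highest, while C6 was the lowest population for ATCG00550 and the next highest for ATCG01020. The 10 highest loci held 44.2% to 48.2% of the chloroplast sum in each population.

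The comparison of w5C6 with C6 set cells sorted by the CEI reporter in the wox5 mutant against those sorted by it without the mutation. Genotype and the makeup of the sorts cannot be told apart in it. Most chloroplast-encoded loci read higher in w5C6, with a spread about that of all loci. The median log2 ratio of the 88 loci, computed on FPKM + 1, was 0.97, a 1.96-fold difference, against 0.06 over all loci. In all, 81 of the 88 were above 0, which was 92.0% against 55.4% of all loci. At least 2-fold higher were 39 loci, or 44.3%, against 10.1% of all loci, and 1 locus, ATCG00100, was at least 2-fold lower, against 4.85% of all loci. ATCG00100 was listed at 0 outside C6 and passed the minimum through C6 alone. Among the 82 loci above 0 in every population, 36 were at least 2-fold higher and 0 lower. The quartiles of the ratio were 0.55 and 1.20, which lay 0.65 apart, against 0.70 for all loci. These are sorted bulk cells, in which more cells of a type with many plastids and more plastid RNA per cell cannot be told apart.

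Among these 6 members, rpl20 and cemA had the highest levels. The rpl20 gene, for protein L20 of the large plastid ribosomal subunit, read 155 FPKM in w5C6 and 85.0 in C6, a ratio of 1.82. The cemA gene, for a plastid envelope membrane protein, read 134 FPKM in w5C6 and 67.5 in C6, 1.99-fold higher. Both ratios lay within the quartiles of the 88 loci.

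The NDH subunit genes were much lower in level. The ndhJ gene read 8.24 FPKM in w5C6 and 2.95 in C6, a 2.79-fold difference, and ndhK 10.3 in w5C6 and 5.34 in C6, a 1.93-fold difference. The NDH complex carries electrons around photosystem I. The clpP gene, for a proteolytic subunit of the plastid Clp protease that is needed in green and colourless plastids alike, stood apart from these, at 60.5 FPKM in w5C6 and 59.6 in C6, a ratio of 1.01.

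Among loci above 0 in every population, the largest difference between w5C6 and C6 was that of ATCG00570, at 681 FPKM in w5C6 and 177 in C6 (log2 ratio 1.94). ATCG00090 read 459 FPKM in w5C6 and 126 in C6 (1.86). ATCG00060 had the lowest ratio, at 27.9 FPKM in w5C6 and 43.7 in C6 (-0.63), and the next lowest was ATCG00330, at 3.01 FPKM in w5C6 and 4.18 in C6 (-0.37). The ratio changed little with level. Its median was 0.82 for the 16 loci with a mean under 20 FPKM, 0.99 for the 22 from 20 to 50 FPKM, 1.02 for the 19 from 50 to 100 FPKM, 0.84 for the 8 from 100 to 200 FPKM and 0.82 for the 23 above.

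Nuclear genes of the same complexes differed far more between w5C6 and C6 than the chloroplast-encoded loci did. The counts and medians for these lists cover every listed gene, without the minimum, and stand beside 10.1% higher and 4.85% lower among all loci above the minimum. All 12 nuclear photosystem I subunit genes were at least 2-fold higher in w5C6, with a median log2 ratio of 4.44, and so were all 9 of photosystem II, with 4.55. PSAF read 198 FPKM in w5C6 and 9.22 in C6, and PSBO1, for the main protein of the oxygen-evolving complex, 172 FPKM in w5C6 and 2.88 in C6. The 4 Rubisco small subunit genes summed to 2313 FPKM in w5C6 and 6.59 in C6, though near-identical copies in this family can exchange reads. All 7 nuclear genes for the cytochrome b6f complex, the ATP synthase and electron carriers were at least 2-fold higher, with a median of 2.26. The 4 nuclear NDH subunit genes were also all at least 2-fold higher, with a sum of 38.5 FPKM in w5C6 and 1.85 in C6. Many of these genes were near 0 outside w5C6. Had w5C6 been left out of the mean, 6 photosystem I, 3 photosystem II, 3 Rubisco and all 4 NDH subunit genes would have been under 1 FPKM. The same held for ATPC1 of the ATP synthase. Among chloroplast-encoded loci above 0 in every population no ratio passed 1.94, and ATCG00960 was the single locus that needed w5C6 to pass the minimum.

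Nuclear genes that serve plastid gene expression differed less. Of 12 nuclear genes for plastid ribosomal proteins, 1 was at least 2-fold higher in w5C6 and none lower, a share near that of all loci, with a median of 0.65. That gene was RPL4, at 15.6 FPKM in w5C6 and 7.06 in C6. Of 8 genes for sigma factors and phage-type polymerases 3 were at least 2-fold higher, with a median of 0.74. Of these SIG1 read 13.0 FPKM in w5C6 and 4.53 in C6, and SIG2 7.96 in w5C6 and 2.94 in C6, while the third, SIG4, lay below the minimum at 1.28 and 0.0131. None of the 12 genes for PEP-associated proteins differed by 2-fold in either direction, and their median was 0.28. In the list of greening regulators and chlorophyll synthesis, 7 of 14 genes were at least 2-fold higher and none lower, with a median of 0.93. Of the chlorophyll synthesis genes GUN4 read 20.8 FPKM in w5C6 and 0.462 in C6, and CHLH, a subunit of magnesium chelatase, 45.4 and 7.55. GUN4, PORB and PORC passed the minimum through w5C6 alone. Of the 5 regulators, GLK1 read 2.71 FPKM in w5C6 and 0.206 in C6, and GNC 2.33 and 0.307, both at least 2-fold higher on FPKM + 1. GLK2 read 15.5 FPKM in w5C6 and 11.9 in C6, HY5 37.5 and 27.6, and GNL 1.84 and 0.771. GLK1, GNC and GNL lay below the minimum and, like SIG4 and the electron carrier gene PETE1, are not in the plot of these lists. The plotted medians are therefore 0.71 for the greening list and 0.72 for the sigma factors and polymerases. For the cytochrome b6f, ATP synthase and carrier list the plotted median is 2.79.

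**Figure D2:**
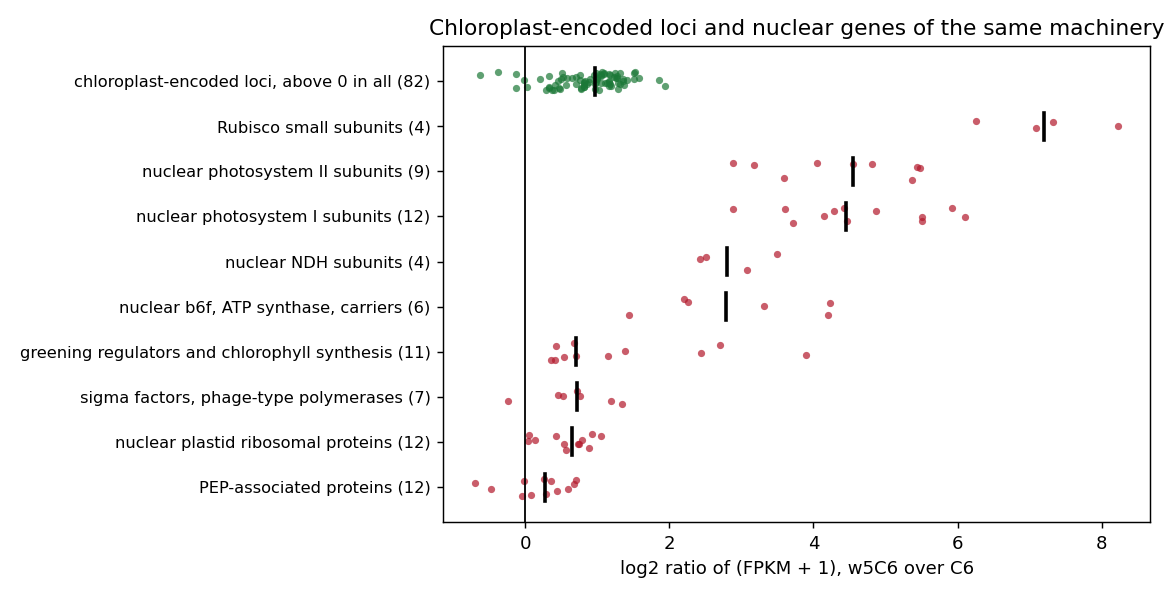
Log2 ratio of (FPKM + 1) in w5C6 over C6 for the 82 chloroplast-encoded loci above 0 in every population and for the genes of 9 nuclear lists with a mean of at least 1 FPKM, 1 point per gene, a bar at the median and the number of genes in brackets. The chloroplast-encoded loci lie around 0.97, below the photosystem lists at 4.44 and 4.55 and beside the plastid ribosomal protein genes at 0.65. Some plotted nuclear genes, among them GUN4 and the 4 NDH subunit genes, passed the minimum through w5C6 alone.

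Markers of several cell types differed between the same populations, and their part in the chloroplast values was not tested. The 4 endodermis markers summed to 83.0 FPKM in w5C6 and 644 in C6, with 2 of 4, CASP1 and CASP2, at least 2-fold lower. SCR read 47.6 FPKM in w5C6 and 48.9 in C6, and MYB36 16.3 and 31.7. The 4 epidermis and root hair markers summed to 343 FPKM in w5C6 and 194 in C6, with 1 of 4, EXPA7, at least 2-fold higher. EXPA7 (194.7 and 93.04 FPKM) and COBL9 (130.5 and 81.44) made up most of these sums. WER read 14.52 FPKM in w5C6 and 14.91 in C6, and GL2 2.953 and 4.735. The 3 root cap markers summed to 63.2 and 131, with 1 of 3 at least 2-fold lower. The pair of cortex markers, AT1G09750 and AT1G62500, summed to 22.7 FPKM in w5C6 and 12.5 in C6, with 1 of 2 higher. The 4 vasculature markers summed to 11.4 and 13.2 FPKM in w5C6 and C6, with ATHB8 at least 2-fold lower. Its member AT2G18380 read 4.71 FPKM in w5C6, with 0 listed for C6, and passed the minimum through w5C6 alone. Of the 4 shoot markers, CAB1, CAB2 and CAB3 were at least 2-fold higher and the list summed to 1218 FPKM in w5C6 and 12.9 in C6. CAB2, at 367 FPKM in w5C6 and 1.04 in C6, likewise passed the minimum through w5C6 alone. STM, the defining marker of the shoot meristem in that list, stood at 2.07 FPKM in w5C6, 0.894 in C6, 26.5 in W5S and 20.2 in W5NS.

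The comparison of C6 with W5NS set cells sorted by the CEI reporter without the mutation against GFP-negative cells of the pWOX5:erGFP root tip. Here the chloroplast-encoded loci did not move as a block. The median log2 ratio was 0.38, against 0.11 over all loci, with 55 loci above 0, 31 below and 2 listed at 0 in both populations. The share above 0 was 62.5%, near the 57.3% of all loci. At least 2-fold higher in C6 were 26 loci, or 29.5%, against 11.4% of all loci, and 5, or 5.68%, were at least 2-fold lower, against 5.80% of all loci. The quartiles, -0.37 and 1.08, lay 1.45 apart, against 0.84 for all loci and 0.65 for the same 88 loci in w5C6 over C6. The split depended on the scaling of the populations. With each population set to the same sum over nuclear loci, 11 were higher and 13 lower, the median of the chloroplast-encoded loci became 0.02 and that of all loci -0.23. The share of all loci past 2-fold was not computed with that scaling, so these counts cannot be read against it. Beside these values, the 4 endodermis markers summed to 644 FPKM in C6 and 151 in W5NS, all 4 at least 2-fold higher, and the 3 root cap markers to 131 and 158, with BRN1 at least 2-fold higher and SMB and FEZ at least 2-fold lower. The 4 epidermis and root hair markers summed to 194 FPKM in C6 and 138 in W5NS, with WER at least 2-fold lower, and the 4 vasculature markers to 13.2 and 39.8, with ATHB8 at least 2-fold lower. Their part in the chloroplast values was not tested.

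Of the identified members, cemA was higher in C6, at 67.5 FPKM against 28.2 in W5NS, with a log2 ratio of 1.23. The rpl20 gene had 85.0 FPKM in C6 against 117 in W5NS (-0.46). The clpP gene read 59.6 FPKM in C6 and 44.3 in W5NS (0.42). The NDH genes were both above 0, ndhJ at 2.95 FPKM in C6 and 1.58 in W5NS, and ndhK at 5.34 in C6 and 2.56 in W5NS. The rpl20 gene thus lay on the other side of 0 from the NDH genes, cemA and clpP. All but cemA differed by less than 1 on the log2 scale of FPKM + 1, where ndhJ had 0.62 and ndhK 0.83.

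Among loci above 0 in every population, ATCG01040 had the highest ratio of C6 over W5NS, at 49.9 FPKM against 13.1 (1.85), and ATCG00250 the lowest, at 74.3 against 189 (-1.33). The other 4 at least 2-fold lower loci were ATCG00190, ATCG00210, ATCG00230 and ATCG00450, the last listed at 0 in C6. The 31 loci below 0 had a median level of 135 FPKM and the 55 above 0 a median of 45.5 FPKM. The high median of the lower loci came from the 26 that were lower by less than 2-fold, at 219 FPKM. The 5 at least 2-fold lower loci had a median of 17.2 FPKM, below the 40.8 FPKM of the 26 at least 2-fold higher loci. By level, the median ratio was 0.53 for the loci under 20 FPKM, 1.23 from 20 to 50, 0.42 from 50 to 100 and -0.10 from 100 to 200. For all loci of the table the median ratio was instead higher at high level, 0.01 for those under 20 FPKM and 0.51 for those above 200 FPKM, where the 23 chloroplast-encoded loci had -0.23. In w5C6 over C6 the medians were 0.96 for the 31 loci and 0.97 for the 55. Within the 31, the 26 lower by less than 2-fold had 1.09 and the 5 at least 2-fold lower 0.41. The C6 values enter both ratios, so the 2 are not independent.

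The comparison of w5C6 with W5NS set the w5C6 cells against those W5NS values again, so it shares them with the comparison of C6 and W5NS. The median log2 ratio was 1.20, against 0.18 over all loci. At least 2-fold higher in w5C6 were 53 loci, or 60.2%, against 15.0% of all loci, and 1, ATCG00250, was at least 2-fold lower, against 3.81% of all loci. ATCG00250 read 67.9 FPKM in w5C6 and 189 in W5NS. The rise was not particular to the chloroplast genome. The 43 mitochondrion-encoded loci above the minimum had a median of 1.34, with 62.8% at least 2-fold higher and 0 lower. ATCG00340 had the highest ratio among loci above 0 in every population, at 110 FPKM in w5C6 and 11.7 in W5NS (3.13). The cemA gene read 134 FPKM in w5C6 and 28.2 in W5NS (2.21), ndhJ 8.24 and 1.58 (1.84), ndhK 10.3 and 2.56 (1.66), clpP 60.5 and 44.3 (0.44) and rpl20 155 and 117 (0.40). These members therefore ran from small differences in rpl20 and clpP to larger ones in cemA and the NDH genes.

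The comparison of W5S with W5NS, both from the pWOX5:erGFP line, set QC marker cells against GFP-negative cells. The chloroplast-encoded loci differed little as a set, with a median log2 ratio of -0.07 against -0.08 over all loci. At least 2-fold higher in W5S were 3 loci, or 3.41%, against 5.89% of all loci, and 7, or 7.95%, were at least 2-fold lower, against 9.31%. The 3 higher loci were ATCG00110 and ATCG01030, both listed at 0 in W5NS, and ATCG00150, at 6.57 FPKM in W5S and 2.52 in W5NS. ATCG00230 was the lowest among loci above 0 in every population, at 15.7 FPKM in W5S and 116 in W5NS (-2.81). ATCG00690 read 4.70 FPKM in W5S and 25.5 in W5NS (-2.22). The rpl20 gene read 90.0 FPKM in W5S and 117 in W5NS (-0.38), and clpP 43.0 and 44.3 (-0.04).

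Against W5S, the chloroplast-encoded loci read higher in w5C6, and in C6 the count past 2-fold was near that of all loci. In C6 over W5S the median log2 ratio was 0.56, against 0.20 over all loci, and 19 loci, or 21.6%, were at least 2-fold higher and 3 lower, against 17.6% and 8.14% of all loci. The 3 lower loci were ATCG00010, ATCG00460 and ATCG00110, the last listed at 0 in C6. The chloroplast share of all FPKM was 1.08% in C6 and 1.10% in W5S. In w5C6 over W5S the median was 1.29, against 0.28, and 65 loci, or 73.9%, were at least 2-fold higher and 2 lower, against 23.6% and 7.86%. The lower ones were ATCG00010, at 193 FPKM in w5C6 and 406 in W5S, and ATCG00060, at 27.9 and 63.2. The 43 mitochondrion-encoded loci had medians of 0.82 in C6 over W5S and 1.04 in w5C6 over W5S. The cemA gene read 134 FPKM in w5C6, 67.5 in C6 and 41.3 in W5S, and ndhK 10.3, 5.34 and 3.36. The ndhJ gene read 8.24 FPKM in w5C6, 2.95 in C6 and 3.13 in W5S, so that C6 lay above W5S for cemA and ndhK and slightly below it for ndhJ.

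**Figure D3:**
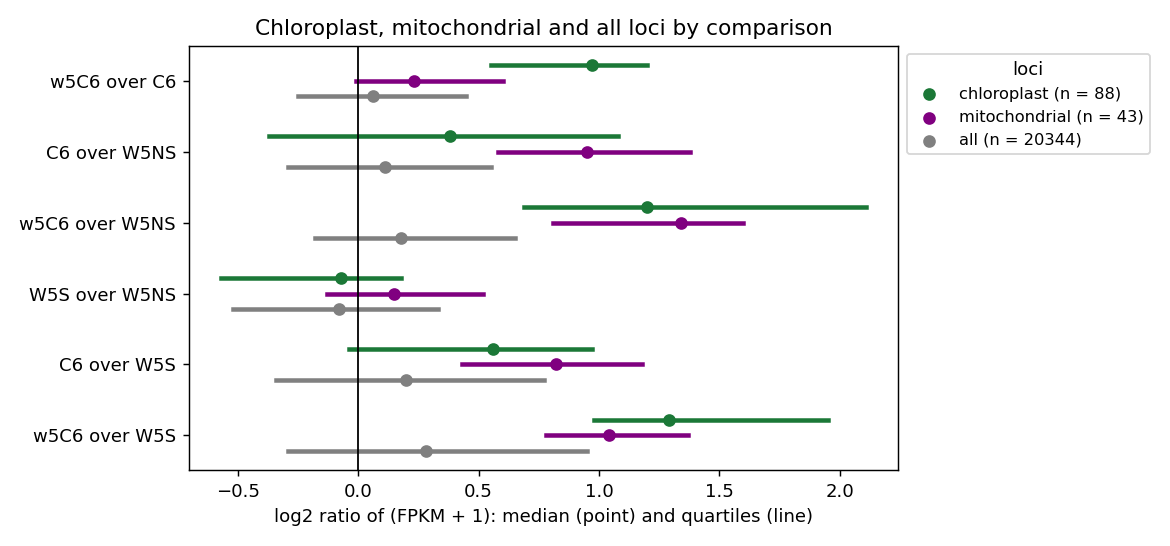
Median (point) and quartiles (line) of the log2 ratio of (FPKM + 1) in the 6 comparisons for 88 chloroplast-encoded loci, 43 mitochondrion-encoded loci and all 20344 loci above the minimum. In w5C6 over C6 the chloroplast median is 0.97, against 0.23 for the mitochondrial and 0.06 for all loci, while in C6 over W5NS the mitochondrial median, 0.95, is above the chloroplast median, 0.38.

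Across the 4 populations, w5C6 was the highest for 76 of the 88 loci, against 34.1% of all loci. W5S was the lowest for 39 (40.9% of all loci), W5NS for 25 (22.6% of all loci), C6 for 18 (20.1% of all loci) and w5C6 for 1 (15.3% of all loci). The most frequent order was w5C6, C6, W5NS and W5S from high to low, in 27 loci, and the next was w5C6, C6, W5S and W5NS, in 22. The share of all loci with each order was not computed, so these orders are not shown to be particular to the chloroplast-encoded loci. Of the 12 loci that were not highest in w5C6, 6 were highest in W5NS (15.7% of all loci), 4 in C6 (26.7%) and 2 in W5S (23.5%). ATCG00010 was among them, at 193 FPKM in w5C6, 167 in C6, 406 in W5S and 247 in W5NS. The mitochondrion-encoded loci, the other organelle genome, were set beside them. Their sum was 5766 FPKM in w5C6, 5191 in C6, 1930 in W5S and 1550 in W5NS, so W5S lay above W5NS, the other way round than in the chloroplast sums. In both organelle sums w5C6 and C6 lay above W5S and W5NS, though the chloroplast sum of C6 was only 1.05-fold that of W5NS.

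The loci were also compared in the order of their IDs. Nuclear IDs of this kind follow the chromosome in 90.9% of neighbouring pairs of the reference, and the 6 identified chloroplast IDs described here lay in the same order on the chloroplast genome, taking the later of the 2 rpl2 copies. Neighbouring IDs had similar ratios. Over 81 pairs of neighbours among the loci above 0 in every population, the correlation of the log2 ratio was 0.51 in C6 over W5NS, 0.39 in w5C6 over C6 and 0.42 in W5S over W5NS, while over 72 pairs that lay 10 loci apart it was -0.08, -0.11 and -0.10. Over 19665 pairs of nuclear neighbours it was 0.07, 0.09 and 0.04. Neighbouring loci can share transcripts and, where genes overlap, reads, so these values are a description.

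In C6 over W5NS the loci therefore formed stretches of one direction, 7 of them with at least 5 loci when those below the minimum are passed over. The longest ran over the 13 loci from ATCG01010 to ATCG01130, all above 0 and 12 of them by at least 2-fold, with ATCG01020 (0.75) the exception and ATCG01030 listed at 0 in W5NS. The median of these 13 was 38.0 FPKM in C6 and 13.1 in W5NS, and in w5C6 82.0. A stretch of 7 loci from the joined pair ATCG00470 and ATCG00480 to ATCG00540, which holds cemA, had a median ratio of 1.10, and the joined pair itself read 506 FPKM in C6 and 236 in W5NS. Another 7, from ATCG00670 (clpP) to ATCG00730, had a median of 0.55. Lower in C6 were the 6 loci from ATCG00230 to ATCG00300, with a median of -0.75, and the 5 from ATCG00740 to ATCG00780, with -0.23. In w5C6 over C6 the medians of these 5 stretches were 0.98, 1.18, 1.05, 1.04 and 0.76, all above 0. The stretches were chosen from the values and carry no test.

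**Figure D4:**
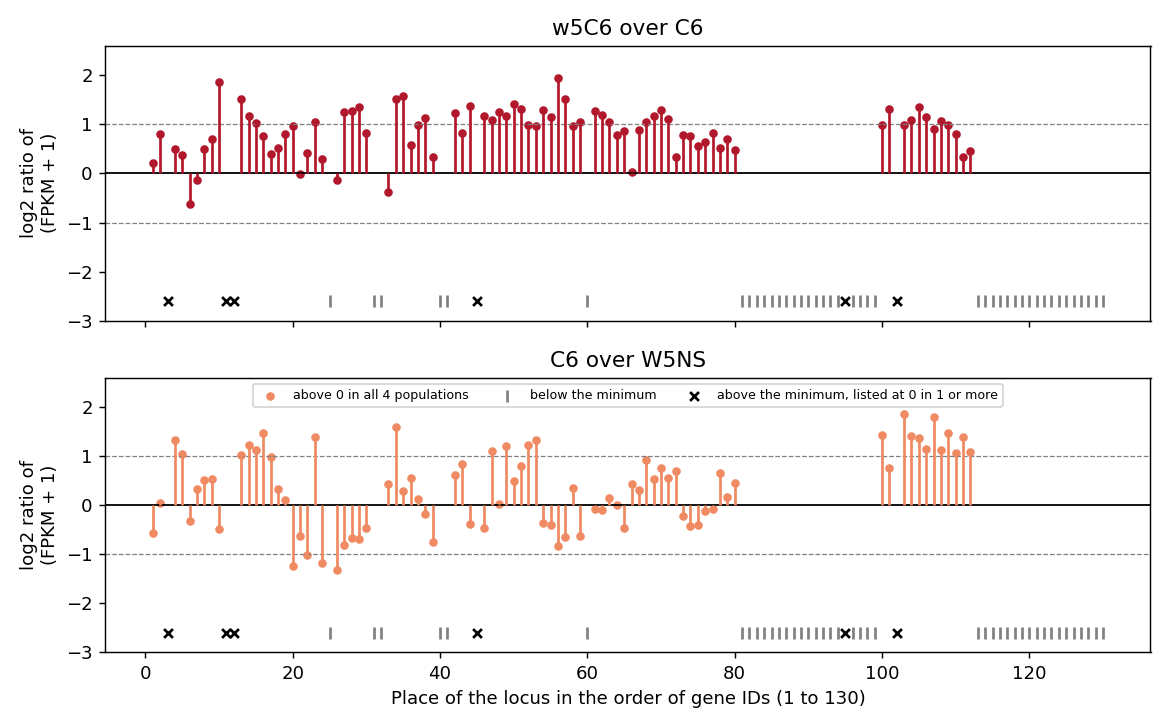
Log2 ratio of (FPKM + 1) along the order of the 130 chloroplast gene IDs, in w5C6 over C6 above and C6 over W5NS below, with dashed lines at a 2-fold difference, ticks for the 42 loci below the minimum and crosses for the 6 loci above it that were listed at 0 in 1 or more populations. Ratios are nearly all above 0 in w5C6 over C6, whereas in C6 over W5NS stretches of neighbours lie on either side of 0, and 2 long stretches hold 36 of the 42 ticks.

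The loci below the minimum lay almost wholly in 2 stretches of the ID order. All but 1 of the 19 loci from ATCG00830 to ATCG01000 and all 18 from ATCG01140 to ATCG01310 had a mean under 1 FPKM, and 9 in each stretch were listed at 0 throughout. The exception, ATCG00960, read 7.06 FPKM in w5C6, with 0 listed for C6, W5S and W5NS, so it passed the minimum through w5C6 alone. Together with it, the first stretch summed to 11.1 FPKM in w5C6, 1.35 in C6, 1.30 in W5S and 1.90 in W5NS, and the second to 3.31, 2.38, 1.51 and 1.55 FPKM. The other 6 loci below the minimum were scattered over the remaining IDs and were at 0 in all 4 populations.

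The second stretch ends with ATCG01310, the rpl2 gene for protein L2 of the large plastid ribosomal subunit. It read 0.616 FPKM in w5C6, 0.547 in C6, 0.366 in W5S and 0.404 in W5NS, while the ribosomal protein gene rpl20 read 85.0 FPKM or more in each population. In the reference chloroplast genome of 154478 bases, rpl2 is present in 2 identical copies within an inverted repeat of 26264 bases, whose copies hold 16 and 17 annotated genes. Every window of 100 bases within rpl2, the length of the reads, occurs more than once on the chloroplast, and no such window of the other 5 genes described here does. In all, 33.9% of the windows on the chloroplast genome occur more than once there. Only 0.509% of them also occur in the nuclear genome and 0.535% in the mitochondrial genome. How reads that match both copies were counted is not given in the sources used here, and its part in the low values was not tested. Apart from ATCG00960, the loci of both stretches enter none of the ratios.

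Besides ATCG00960, 5 loci above the minimum were listed at 0 in 1 or more populations, and no fold is given for them. ATCG00110 read 150 FPKM in w5C6 and 45.5 in W5S, with 0 listed for C6 and W5NS. ATCG00030 read 42.3 FPKM in w5C6 and 49.2 in C6, with 0 listed for W5S and W5NS. ATCG01030 read 57.3 FPKM in w5C6, 30.7 in C6 and 15.2 in W5S and was listed at 0 in W5NS. ATCG00450 read 24.8 FPKM in w5C6 and 9.20 in W5NS, with 0 listed for C6 and W5S, and ATCG00100 read 24.4 FPKM in C6 and was at 0 in the other 3 populations. ATCG00100 thus passed the minimum through C6 alone, and it is counted among the higher loci in C6 over W5NS and C6 over W5S. Such jumps between neighbouring levels of many FPKM and 0 occurred in different populations for different loci, and an exact 0 can be a failed estimate in a table without counts.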

How the data were processed

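The authors made SMART-Seq libraries from the RNA of few sorted cells and read them as 100 bp single ends. After trimming by fastq-mcf, HISAT2 alignments were turned into expression values by Cufflinks within TuxNet, and both tools are named in the submitters' processing notes. Neither tool versions nor a genome build were given in the sources used here, and therefore no coordinates or sequences are printed. The authors deposited 1 FPKM value for each locus in each population, a pool of 4 libraries. The header names no unit, and FPKM was read from the pipeline. The deposited table also holds the authors' log2 fold changes and q-values for pairs of populations, which were not used. Depth per library is unknown, and no interval could be given.

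Log2 ratios were computed here from FPKM + 1, which shrinks the ratios of low loci, for loci with a mean of at least 1 FPKM over the populations. Counts used a 2-fold ratio of FPKM + 1, while folds printed for single genes are ratios of FPKM without the added 1. Functional groups of chloroplast genes had been planned, but the reference table gives no names for ATCG IDs. The rule for named genes (the 3 highest means, the highest and lowest ratios, and loci at 0 in some populations and at 10 FPKM or more in others) was therefore applied to all chloroplast-encoded loci together, with further IDs named where a count was small or a stretch began or ended. The identified IDs were found from notes in the TAIR10.1 annotation and aligned with BLAST 2.17.0, and 1 such gene is not reported here. Of 105 nuclear and marker genes, 97 matched the reference by symbol, and those named were chosen after their values were seen. The w5C6 over C6 counts and medians of the plastid lists used no minimum. The members and lists were chosen with earlier results of these data known. The counting was tested on simulated data. Python 3.11.15, pandas 2.3.3, NumPy 2.4.6 and matplotlib 3.10.9 were used.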

Additional observations from a re-analysis of the deposited data

How the results depend on the processing

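The 6 medians and 12 counts of chloroplast-encoded loci were recomputed under 8 alternatives, 2 of them (without loci listed at 0 in any population, and without loci that name 2 IDs) chosen after seeing the data. All 48 recomputed medians stayed within 1.5-fold of the reported ratio, and in w5C6 over C6 they ran from 0.69 (no filter on low values) to 1.07 (same sum over nuclear loci). The reported ratios of C6 over W5NS (1.30), C6 over W5S (1.47) and W5S over W5NS (0.95) were themselves within 1.5-fold of no difference. For these the tolerance cannot tell a kept difference from a lost one. In C6 over W5S the median went from 0.56 to 0.20 with no filter. In C6 over W5NS the median became 0.00 with no filter and 0.02 with the same nuclear sum. That scaling moved the median of all loci in this comparison to -0.23, against 0.11 as deposited. Of 96 recomputed counts, 86 stayed within 1.5 times. The share of all loci past 2-fold was not recomputed under the alternatives, so none stands beside these counts. With a pseudocount of 10 FPKM, C6 over W5NS had 14 loci higher and 2 lower, and w5C6 over W5S had 1 lower. With the same nuclear sum, C6 over W5NS had 11 higher and 13 lower, and w5C6 over W5NS 3 lower, as it also had with median ratio scaling. With a mean of at least 10 FPKM, and without loci listed at 0, w5C6 over C6 had 0 lower, and without loci listed at 0 W5S over W5NS had 1 higher. These last changes follow from fewer loci entering; for the others the cause was not tested. Leaving out tRNA and rRNA loci and counting each gene symbol once were not run, since the IDs carry no gene names. No replicate could be left out, and no paired analysis was possible because the columns hold 1 pooled value per population and carry no replicate numbers.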
